A study of Amorphotheca resinae with 20 samples.

Results

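Of 18830 gene identifiers counted in the mould Amorphotheca resinae, strain ZN1, 24 are described here, selected on their measured levels because their transcripts were lowered by 4-hydroxybenzaldehyde and not by vanillin or syringaldehyde. For each of 7 inhibitors, a log2 ratio was taken of the mean level with the inhibitor over the mean level of its own control, each level being the gene's share of its library's reads scaled to 1000000 (CPM), plus 1. A gene was a member when the ratio largest in size was that of 4-hydroxybenzaldehyde, when this ratio was -1.2 or lower, and when the ratios of vanillin and of syringaldehyde were both above -0.4. The rule therefore used the ratios of all 7 inhibitors against their controls, and these ratios are given below as a description of the members. Calls against the controls come from a fit over all genes and are printed beside the share of all genes called, but they are not evidence about the members. The comparisons read as tests are the direct differences between 2 inhibitors of 1 experiment, which the rule did not compare.

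All libraries came from the wild type strain grown at 28 °C in potato-dextrose medium for 4 h with or without an inhibitor. The phenolic aldehyde experiment held 4-hydroxybenzaldehyde, vanillin and syringaldehyde, each at 0.1 g/L (0.819, 0.657 and 0.549 mmol/L in that order), and an untreated control. The furans were furfural, given at 1.0 g/L (10.4 mmol/L), and 5-hydroxymethylfurfural (HMF), given at 1.0 g/L (7.93 mmol/L), with a control of their own. The weak acids, again with their own control, were acetic acid, given at 2.0 g/L (33.3 mmol/L), and formic acid, given at 4.0 g/L (86.9 mmol/L). Each of the 10 groups had 2 libraries, numbered 1 and 2 except for HMF, whose libraries are numbered 3 and 4. The labels do not say whether the 2 came from separate cultures, so errors and p-values measure the spread between these libraries, which may be technical. A lower count in bulk mycelia cannot tell fewer cells of a kind from less RNA per cell.

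As background, these inhibitors are formed when lignocellulose is pretreated before fermentation. The phenolic aldehydes come from lignin, the furans from dehydrated sugars, acetic acid from acetyl groups of hemicellulose and formic acid from breakdown of the furans. The 3 phenolic aldehydes share a ring with an aldehyde and a para-hydroxyl group. 4-Hydroxybenzaldehyde carries no methoxy group on that ring, vanillin carries 1 and syringaldehyde 2. A. resinae is known for growth on hydrocarbons such as kerosene, and the ZN1 strain for converting these aldehydes to less toxic alcohols and acids. The count tables pair the identifiers with no gene name or product, and 0 of the 18830 identifiers matched the 9642 genes of the A. resinae reference table used here, so no function can be given to any member.

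A log2 ratio of -1.2 or lower with 4-hydroxybenzaldehyde was found for 137 genes. Of these, 108 were left out because vanillin or syringaldehyde also gave a ratio of -0.4 or lower (91 for vanillin and 98 for syringaldehyde, with genes in both). Of the remaining 29 genes, 5 had a larger ratio with another inhibitor (2 with furfural, 1 with acetic acid and 2 with formic acid). Genes lowered to this extent by 4-hydroxybenzaldehyde were thus mostly lower with another phenolic aldehyde as well, and the 24 members are the smaller share. The 3 phenolic aldehyde ratios share their control libraries, and the share of all genes at -0.4 or lower was not taken. Nothing further is read from this count. The 3 members nearest to the threshold were ARZ_10704_T1, ARZ_17862_T1 and ARZ_13672_T1, with ratios of -1.27, -1.27 and -1.23. The 3 nearest genes outside it were ARZ_6633_T1, ARZ_3972_T1 and ARZ_6817_T1, with -1.18, -1.17 and -1.16.

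Libraries held 11601181 to 26106956 counts, and those of the phenolic aldehyde experiment 14609602 to 26106956. All 24 members passed the filter on low counts in each of the 3 experiments. A 4-hydroxybenzaldehyde library held between 14 and 5476 reads of a member, so counting error was small for most. Levels are in CPM without division by gene length and are compared between libraries for 1 gene at a time, not between genes.

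With 4-hydroxybenzaldehyde, the member with the lowest ratio was ARZ_4964_T1. It was at 45.0 and 49.2 CPM with 4-hydroxybenzaldehyde (libraries 1 and 2 in that order, as for all pairs of values in this experiment), against 566 and 309 CPM in the control libraries. The ratio of the means was -3.19, which is 9.12-fold lower on the CPM plus 1 scale. Both treated libraries lay far below both controls, and the controls differed from each other more than the treated libraries did. ARZ_17721_T1 was at 6.64 and 5.99 CPM with 4-hydroxybenzaldehyde and at 44.4 and 19.8 CPM in the control, a log2 ratio of -2.18 (4.53-fold lower). ARZ_6114_T1 was at 6.38 and 8.11 CPM with 4-hydroxybenzaldehyde and at 42.5 and 20.2 CPM in the control, a log2 ratio of -1.97 (3.92-fold lower). In these 2 genes, too, the treated pair was tight and below a control pair whose first library was the higher.

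ARZ_1953_T1 had 8.10 and 7.21 CPM with 4-hydroxybenzaldehyde and 37.2 and 25.6 CPM in the control (log2 ratio -1.90). ARZ_13640_T1 had 7.64 and 7.79 CPM with 4-hydroxybenzaldehyde and 38.2 and 17.6 CPM in the control (-1.73). ARZ_1028_T1 had 16.1 and 19.3 CPM with 4-hydroxybenzaldehyde and 59.1 and 51.7 CPM in the control (-1.59). Of these, ARZ_1028_T1 had control libraries close to each other, as did ARZ_9858_T1, which was at 8.04 and 7.85 CPM with 4-hydroxybenzaldehyde and 27.7 and 23.2 CPM in the control (-1.56). ARZ_11151_T1 had the fewest reads, 0.996 and 0.901 CPM with 4-hydroxybenzaldehyde and 7.13 and 2.14 CPM in the control (-1.53).

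Members with many reads showed the same order of groups. ARZ_8294_T1 was at 318 and 353 CPM with 4-hydroxybenzaldehyde, against 595 and 1400 CPM in the control (log2 ratio -1.57). It was the member whose control library 2 was most above library 1. ARZ_6358_T1 was at 91.5 and 98.8 CPM with 4-hydroxybenzaldehyde and 361 and 182 CPM in the control (-1.503), and ARZ_15573_T1 at 137 and 126 CPM with 4-hydroxybenzaldehyde and 384 and 304 CPM in the control (-1.38). ARZ_10061_T1 was at 273 and 296 CPM with 4-hydroxybenzaldehyde and 633 and 767 CPM in the control (-1.30), and ARZ_13672_T1 at 99.6 and 109 CPM with 4-hydroxybenzaldehyde and 267 and 224 CPM in the control (-1.23). The remaining 11 members had log2 ratios from -1.44 for ARZ_10684_T1 to -1.27 for ARZ_17862_T1.

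**Figure D1:**
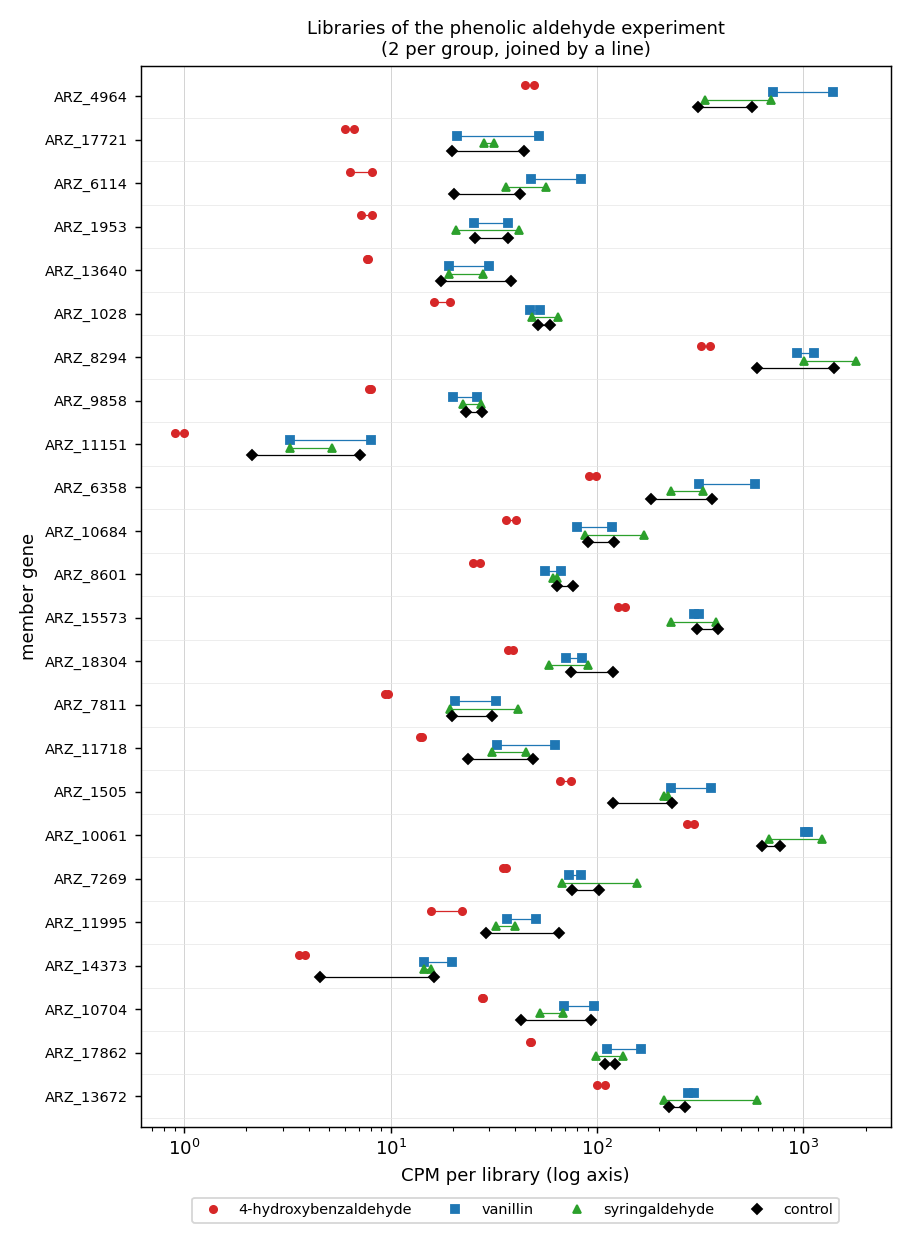
CPM of each member gene (rows) in the 8 libraries of the phenolic aldehyde experiment on a log axis, 2 libraries per group joined by a line. In all 24 rows the 2 4-hydroxybenzaldehyde libraries sit left of the control, vanillin and syringaldehyde libraries, whose ranges mostly overlap.

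Over the 24 members the log2 ratio with 4-hydroxybenzaldehyde ran from -3.19 to -1.23 with a median of -1.39, against a median of 0 over all genes. In 24 of 24 members both treated libraries were below both controls, an order that 36.5% of genes showed whose mean control level was at least 4.63 CPM, the lowest among the members; the rule selects for it. In the edgeR fit, 22 of the 24 members passed an adjusted p of 0.05 as lower, and over all genes 5% did; since the rule used this contrast, nothing is read from that count. With any 1 of the 4-hydroxybenzaldehyde or control libraries left out, the log2 difference in the fit stayed below 0 for all 24 members. That difference was smallest in size for ARZ_14373_T1 without control library 1. Its sign follows largely from both treated libraries lying below both controls, so nothing is read from it. Calls over all genes fell in each of these fits, which leave a single library in a group. Members called in them are therefore given only as a range at the end, and nothing is read from it. The 2 members not called in the fit of all libraries were ARZ_14373_T1, at 3.59 and 3.86 CPM with 4-hydroxybenzaldehyde and 16.2 and 4.55 CPM in the control, and ARZ_13672_T1.

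The control libraries of this experiment differed from each other at the members. Control library 1 was above control library 2 for 22 of 24 members, with a median log2 difference of 0.65, while it was above it for 51.5% of the 13528 genes at the members' lowest control level or above, with a median of 0.01. Vanillin library 1 was below vanillin library 2 for 23 of 24 members (median log2 difference -0.50, against 0.02 over the same genes). The 4-hydroxybenzaldehyde libraries lay closer together, with a median log2 difference of -0.05 and a range of -0.30 to 0.48. Whether whatever set the control and vanillin libraries apart also moved the treated libraries was not tested. Taken by library number, the log2 ratio of 4-hydroxybenzaldehyde over control was lower in the libraries numbered 1 for 22 of 24 members. For ARZ_14373_T1 it was -1.91 in the libraries numbered 1 and -0.19 in those numbered 2, and for ARZ_4964_T1 it was -3.62 and -2.63.

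**Figure D2:**
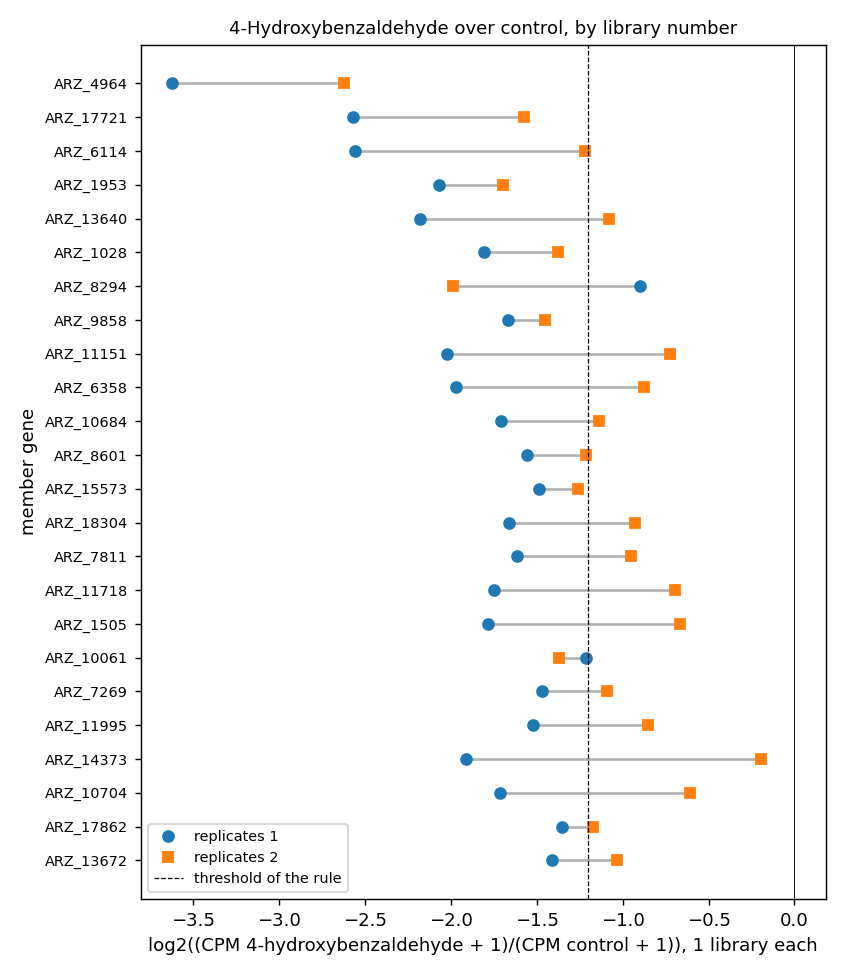
Log2 ratio of CPM plus 1, 4-hydroxybenzaldehyde over control, for each member gene (rows), taken from the libraries numbered 1 (circles) and numbered 2 (squares), with the threshold of -1.2 as a dashed line. All 48 points are below 0, which follows from both treated libraries lying below both controls in every member. For 22 of 24 members the ratio is further from 0 in the libraries numbered 1.

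To read the ratio in libraries that did not choose the genes, the rule was applied with only the libraries numbered 1 of the phenolic aldehyde experiment and the chosen genes were read in the libraries numbered 2, and the other way round. The libraries numbered 1 chose 29 genes, of which 9 are among the 24 members. In the libraries numbered 2 these 29 genes had a median log2 ratio of -0.68, with 28 below 0 and 7 (24.1%) at -1 or lower, where 1.77% of genes at the members' control level or above were as low. The libraries numbered 2 chose 12 genes, of which 8 are members. In the libraries numbered 1 these 12 had a median of -1.69, and 12 of 12 were at -1 or lower, where 3.2% of the genes were. Genes chosen in 1 pair of libraries were thus mostly lower in the other pair too, by an amount that depended on which pair was read. Over all genes at the members' control level or above, the medians were -0.02 in the libraries numbered 2 and -0.04 in those numbered 1. The chosen genes are not the 24 members as a set, and whether the 2 pairs came from separate cultures is not given. With 1 library per group these ratios carry no test. Without control library 1, the rule kept 11 genes, 9 of them members.

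With vanillin, the log2 ratios of the members ran from -0.32 to 1.26 with a median of 0.12, and with syringaldehyde from -0.38 to 0.71 with a median of 0.03; the lower bound of both is set by the rule. ARZ_4964_T1 was at 713 and 1384 CPM with vanillin and at 692 and 335 CPM with syringaldehyde, beside its 45.0 and 49.2 CPM with 4-hydroxybenzaldehyde and 566 and 309 CPM in the control. Its vanillin libraries were both above the controls, while its syringaldehyde libraries overlapped them, with library 1 above both controls and library 2 between them. ARZ_6114_T1 was at 48.0 and 83.8 CPM with vanillin, 36.1 and 56.7 CPM with syringaldehyde and 42.5 and 20.2 CPM in the control. ARZ_1505_T1 was at 227 and 356 CPM with vanillin, 211 and 220 CPM with syringaldehyde and 230 and 119 CPM in the control. For ARZ_6114_T1 the vanillin libraries were above both controls and the syringaldehyde libraries overlapped them, while for ARZ_1505_T1 both overlapped the controls.

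Of the 24 members, 2 were called higher with vanillin, ARZ_4964_T1 and ARZ_6114_T1, with log2 ratios of 1.26 and 1.05, and 0 were called lower, beside 8.83% and 10.4% of all genes. The count of members called changed with any 1 of the vanillin or control libraries left out, and the share of all genes called was lower in each of those fits. With syringaldehyde 0 members were called by edgeR, by DESeq2 or at an unadjusted p of 0.05, beside 24.1% of all genes. Some members were called when either syringaldehyde library or control library 1 was left out. Without syringaldehyde library 2 these calls went in both directions. Each of those fits leaves 1 library in a group. In the fit of all libraries, absence of lower calls with these compounds is what the rule asked for.

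**Figure D3:**
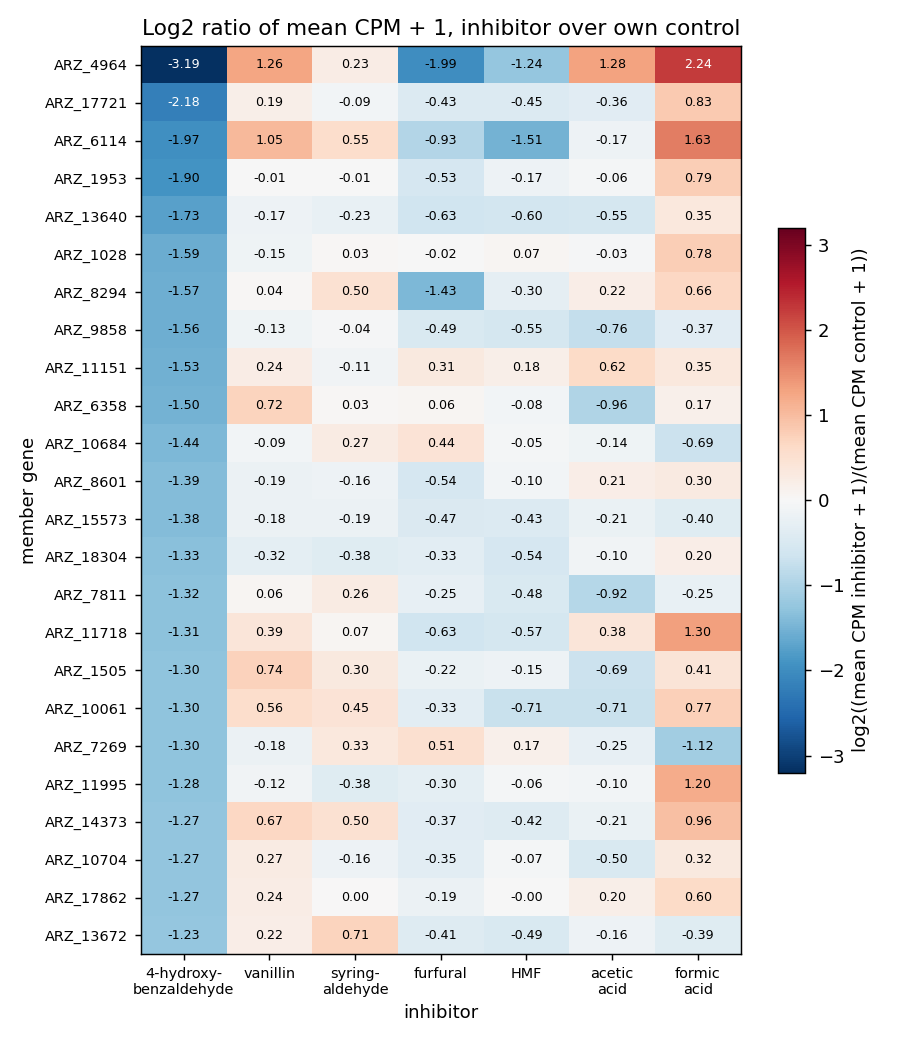
Log2 ratio of mean CPM plus 1, inhibitor over its own control, for the 24 member genes (rows) and 7 inhibitors (columns), blue where lower and red where higher. The first column is blue throughout (-3.19 to -1.23), the vanillin and syringaldehyde columns are near 0 or above, and the formic acid column is red for 18 of 24 genes.

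Vanillin has 1 methoxy group fewer than syringaldehyde. Both were compared directly at 0.1 g/L, a difference the rule did not use beyond bounding both ratios. Of the 24 members, 0 passed the edgeR quasi-likelihood test at an adjusted p of 0.05, beside 4.74% of all genes. The count was 2 at an unadjusted p of 0.05 and 0 with DESeq2. The log2 differences, vanillin over syringaldehyde, ran from -0.55 for ARZ_13672_T1 to 0.98 for ARZ_4964_T1, with a median of 0.06 over the members and 0 over all genes to 2 decimals. The 95% interval lay within 2-fold either way for 13 of 24 members, beside 68.6% of all genes. For ARZ_4964_T1 it ran from 0.14 to 1.82 (edgeR adjusted p = 0.189), so a difference of over 2-fold is within it. ARZ_7269_T1 was lower with vanillin when syringaldehyde library 1 was left out (edgeR adjusted p = 0.00602), and ARZ_13672_T1 when syringaldehyde library 2 was left out (edgeR adjusted p = 0.000551). The syringaldehyde libraries of ARZ_13672_T1 were at 592 and 210 CPM, and those of ARZ_7269_T1 at 67.6 and 157 CPM, so each gene had 1 syringaldehyde library far above the vanillin pair and 1 below it.

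The members' untreated level can also be read in the control libraries of the furan and weak acid experiments, although those cultures belong to other experiments. Both 4-hydroxybenzaldehyde libraries were below all 6 control libraries for 18 of 24 members, and 14.8% of genes at the members' control level or above showed this order. The rule chose the members for low 4-hydroxybenzaldehyde levels against 2 of these 6 libraries and used the other 4 in its ratios for the furans and acids, so nothing is read from that count. ARZ_6114_T1, at 6.38 and 8.11 CPM with 4-hydroxybenzaldehyde, was at 57.8 and 35.5 CPM in the furan control and 18.3 and 25.8 CPM in the weak acid control. ARZ_10684_T1, at 36.2 and 40.6 CPM with 4-hydroxybenzaldehyde, was at 121 and 90.5 CPM in its own control, 190 and 137 CPM in the furan control and 133 and 118 CPM in the weak acid control. For these genes every control group was above the treated pair. ARZ_7269_T1 and ARZ_15573_T1 had the same order, with log2 ratios of -1.996 and -1.80 against the furan control and -1.26 and -1.035 against the weak acid control.

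For other members the untreated level itself differed between experiments. ARZ_10061_T1 was at 273 and 296 CPM with 4-hydroxybenzaldehyde, between its own control (633 and 767 CPM) and the furan control (98.8 and 153 CPM). ARZ_10704_T1 was at 27.9 and 27.6 CPM with 4-hydroxybenzaldehyde, against 93.8 and 42.7 CPM in its own control and 27.6 and 27.0 CPM in the furan control. For these 2 genes the treated level was not below untreated mycelia of the furan experiment. Besides these, ARZ_1028_T1, ARZ_11151_T1, ARZ_11995_T1 and ARZ_14373_T1 were not below all 6 controls. The phenolic aldehyde control exceeded the mean of the furan control for 15 members and that of the weak acid control for 21 (median log2 ratios 0.83 and 0.50, against 0.07 and 0.11 over genes at the members' control level or above). The rule divided its phenolic aldehyde ratios by this control. Its level thus took part in choosing the members, and nothing is read from the excess. Against the furan and weak acid controls, the median log2 ratio of 4-hydroxybenzaldehyde was -1.04 and -0.84 over the members, against 0.05 and 0.07 over those genes. The rule chose the members for low levels in these same 4-hydroxybenzaldehyde libraries, so nothing is read from these medians. What differed between the untreated cultures of the 3 experiments was not tested.

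**Figure D4:**
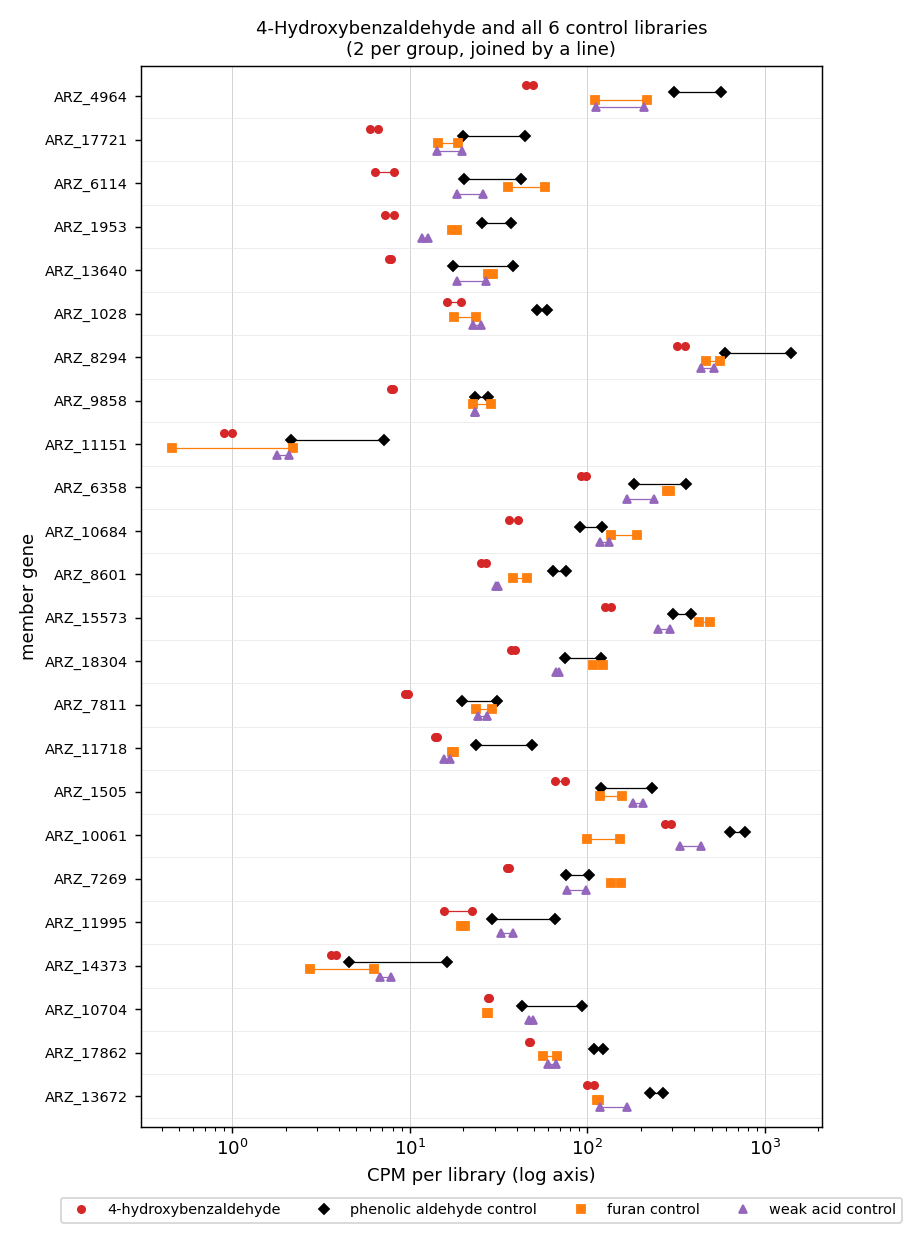
CPM of each member gene (rows) on a log axis in the 4-hydroxybenzaldehyde libraries and in the control libraries of the phenolic aldehyde, furan and weak acid experiments, 2 per group joined by a line. In 18 of 24 rows the 4-hydroxybenzaldehyde pair is left of all 6 control libraries, while ARZ_10061_T1 and ARZ_10704_T1 have furan controls at or below it.

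Over the 10 groups, 4-hydroxybenzaldehyde had the lowest mean level for 16 of 24 members, furfural for 5 and HMF for 3. The highest mean was with vanillin for 10 members, with syringaldehyde for 4, with formic acid for 3, in the furan control for 3, with furfural for 2 and in the phenolic aldehyde control for 2. These orders span 3 experiments and are given as levels only.

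With the furans, most members were somewhat lower than in the furan control. The median log2 ratio was -0.36 with furfural (20 of 24 below 0) and -0.36 with HMF (21 of 24 below 0), beside medians of -0.05 and -0.01 over all genes. ARZ_4964_T1 was at 36.1 and 44.5 CPM with furfural (libraries 1 and 2), 66.5 and 70.8 CPM with HMF (libraries 3 and 4) and 216 and 110 CPM in the furan control. Its log2 ratios were -1.99 with furfural and -1.24 with HMF, so the member lowered most by 4-hydroxybenzaldehyde was also low with both furans. ARZ_6114_T1 was at 21.8 and 26.1 CPM with furfural, 12.2 and 19.3 CPM with HMF and 57.8 and 35.5 CPM in the control (log2 ratios -0.93 and -1.51). ARZ_8294_T1 was at 188 and 191 CPM with furfural, 332 and 503 CPM with HMF and 559 and 467 CPM in the control (-1.43 and -0.30).

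In contrast, ARZ_7269_T1 was at 213 and 202 CPM with furfural, 177 and 150 CPM with HMF and 155 and 136 CPM in the control, and ARZ_10684_T1 at 226 and 217 CPM with furfural, 156 and 159 CPM with HMF and 190 and 137 CPM in the control. Their log2 ratios with furfural were 0.51 and 0.44. The edgeR fit called 6 members lower and 2 higher with furfural, beside 16.9% and 17.4% of all genes, and 5 lower and 0 higher with HMF, beside 3.45% and 5%. For furfural the count of 8 was lower with any 1 of the furfural or control libraries left out. For HMF the count of 5 was lower without HMF library 3 or either furan control library, and higher without HMF library 4. In each of these fits the share of all genes called moved the same way. The rule used these contrasts only as an upper bound on size, and nothing is read from these counts.

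Furfural and HMF, which differ by a hydroxymethyl group, were compared directly at 1.0 g/L. The edgeR quasi-likelihood test called 5 of 24 members, 4 higher and 1 lower with furfural, beside 34.2% of all genes (17.2% higher and 17% lower). Whether these shares differ was not tested. ARZ_8294_T1 was lower with furfural, by a log2 difference of -1.08 ± 0.16 (SE; 95% interval -1.42 to -0.74; edgeR adjusted p = 2.44e-05), and its furfural libraries were both below its HMF libraries. ARZ_6114_T1 was higher with furfural by 0.67 ± 0.23, ARZ_10684_T1 by 0.55 ± 0.14, ARZ_10061_T1 by 0.45 ± 0.16 and ARZ_7269_T1 by 0.41 ± 0.13, with edgeR adjusted p-values of 0.0327, 0.00487, 0.0345 and 0.0227. The call for ARZ_6114_T1 was lost without furfural library 2 or HMF library 3, that for ARZ_10684_T1 without furfural library 1, and that for ARZ_7269_T1 without furfural library 1 or 2 or HMF library 4. The call for ARZ_10061_T1 was lost without any 1 of the 4 libraries. ARZ_8294_T1 alone among the 5 kept its call with each of the 4 left out in turn. The share of all genes called was lower in each of these fits as well. The 95% interval lay within 2-fold for 20 of 24 members, beside 60.7% of all genes.

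Most members were lower with acetic acid than with formic acid. The difference was called for 20 of 24 members by the edgeR quasi-likelihood test, with 18 lower and 2 higher with acetic acid, beside 13.3% lower and 11.8% higher over all genes. The median log2 difference, acetic acid over formic acid, was -0.90 over the members and 0.01 over all genes. Both acetic acid libraries were below both formic acid libraries for 18 members, an order found in 29.1% of genes at the members' control level or above. The doses differ, at 2.0 and 4.0 g/L, so the difference is between these treatments and not between the acids at 1 dose. With any 1 of the 4 acid libraries left out, fewer members were called, most of them lower with acetic acid. The share of all genes called was lower in each of these fits too.

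ARZ_6114_T1 was at 17.6 and 21.5 CPM with acetic acid (libraries 1 and 2, as for formic acid and the control) and 58.4 and 82.2 CPM with formic acid, with 18.3 and 25.8 CPM in the weak acid control. Its log2 difference between the acids was -1.92 ± 0.20 (95% interval -2.34 to -1.49; edgeR adjusted p = 7.55e-06), with the acetic acid libraries near the control and the formic acid libraries above it. ARZ_10061_T1 was at 201 and 269 CPM with acetic acid, 683 and 627 CPM with formic acid and 334 and 435 CPM in the control, a log2 difference between the acids of -1.55 ± 0.18 (95% interval -1.94 to -1.17; edgeR adjusted p = 1.31e-05). Here the acetic acid libraries lay below the control and the formic acid libraries above it. ARZ_17721_T1 was at 14.8 and 11.2 CPM with acetic acid, 27.8 and 34.2 CPM with formic acid and 19.8 and 14.3 CPM in the control, with a difference between the acids of -1.33 ± 0.19. ARZ_6358_T1 was at 104 and 103 CPM with acetic acid, 229 and 228 CPM with formic acid and 238 and 167 CPM in the control, with a difference of -1.22 ± 0.16. In ARZ_6358_T1 it was the acetic acid pair that stood apart from the control.

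ARZ_4964_T1 was above its control with both acids, at 362 and 415 CPM with acetic acid and 733 and 781 CPM with formic acid, against 112 and 207 CPM in the control. Its difference between the acids was -1.04 ± 0.23 (edgeR adjusted p = 0.00421, and 0.0514 without acetic acid library 1). This gene therefore had levels below the control with 4-hydroxybenzaldehyde and both furans and above it with both acids. ARZ_1505_T1, ARZ_11995_T1, ARZ_14373_T1, ARZ_11718_T1 and ARZ_13640_T1 were also lower with acetic acid by more than 2-fold, with log2 differences from -1.39 to -1.02. Of the 10 members with a called difference of at least 2-fold, 10 were lower with acetic acid, and for ARZ_6114_T1, ARZ_10061_T1 and ARZ_11995_T1 the value -1 lay outside the 95% interval.

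The 2 members higher with acetic acid were ARZ_7269_T1 and ARZ_10684_T1. ARZ_7269_T1 was at 71.3 and 74.5 CPM with acetic acid, 40.6 and 38.4 CPM with formic acid and 97.7 and 76.3 CPM in the control, a log2 difference between the acids of 0.81 ± 0.14 (edgeR adjusted p = 0.000621). ARZ_10684_T1 was at 112 and 116 CPM with acetic acid, 70.0 and 84.0 CPM with formic acid and 133 and 118 CPM in the control, a difference of 0.49 ± 0.14 (edgeR adjusted p = 0.0171, and 0.0888 without acetic acid library 2 and 0.231 without formic acid library 1). These are the 2 members that were called higher with furfural, and with both acids their libraries were below both controls. The 4 members without a call were ARZ_11151_T1, ARZ_8601_T1, ARZ_15573_T1 and ARZ_13672_T1, with log2 differences of 0.30 (95% interval -0.43 to 1.03), -0.16 (-0.48 to 0.16), 0.12 (-0.22 to 0.46) and 0.16 (-0.18 to 0.50).

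**Figure D5:**
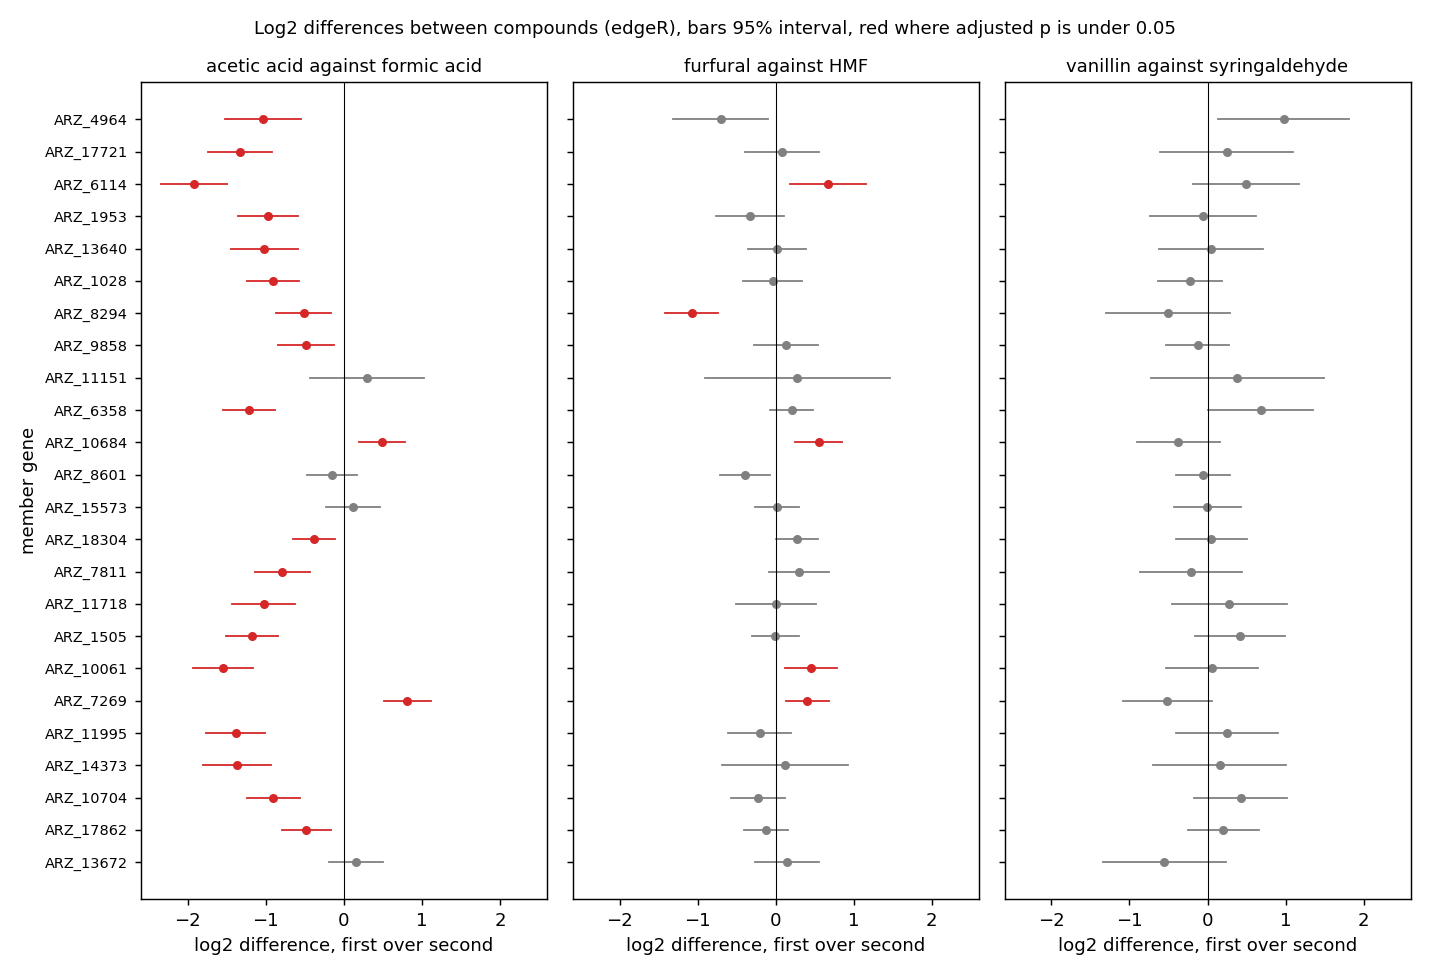
Log2 differences from edgeR for the 24 member genes (rows) in 3 direct comparisons, with 95% intervals as bars and red where the adjusted p is under 0.05. Acetic acid against formic acid has 20 red genes, 18 of them left of 0, furfural against HMF has 5 and vanillin against syringaldehyde 0.

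Against the weak acid control, the log2 ratios with formic acid ran from -1.12 to 2.24 with a median of 0.38 (18 of 24 above 0), and those with acetic acid from -0.96 to 1.28 with a median of -0.17 (18 of 24 below 0); the medians over all genes were -0.06 and 0. The control mean lay above acetic acid and below formic acid for 12 members. The edgeR fit called 14 members higher and 2 lower with formic acid, beside 20.9% and 18.8% of all genes, and 1 higher and 7 lower with acetic acid, beside 19.7% and 18.3%. ARZ_1505_T1, ARZ_10061_T1 and ARZ_10704_T1 were called in both, lower with acetic acid and higher with formic acid. The 2 acids share their control libraries, and the rule bounded the size of both ratios, so nothing is read from these counts.

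The members were not neighbours by identifier. Their numbers ran from 1028 to 18304 within identifiers numbered 1 to 18830, and 0 of 24 lay within 5 of another member. The closest pair, ARZ_10684_T1 and ARZ_10704_T1, were 20 apart. Even spacing would be 785, but the smallest gap among scattered numbers is well below their mean spacing, so nothing is read from it. Whether identifier order follows genome order is not given in the sources used here. Over log2(CPM + 1) in the 20 libraries, the genes most like ARZ_4964_T1 among 11534 with at least 10 CPM in the phenolic aldehyde control were ARZ_1305_T1, ARZ_10846_T1 and ARZ_9772_T1, with Pearson's r of 0.93, 0.91 and 0.91. Their log2 ratios with 4-hydroxybenzaldehyde were -1.496, -3.58 and -0.90, and none is a member. These values describe likeness over libraries that share groups, experiments and controls. For 10 of 24 members the most similar gene was another member, and for 15 at least 1 of the 3 most similar genes was. The rule picked members for a shared drop within these 20 libraries, so likeness among them is partly set by it. Nothing is read from these counts. The pairs most alike among members were ARZ_1028_T1 with ARZ_17862_T1 (r = 0.94), ARZ_14373_T1 with ARZ_10704_T1 (0.93) and ARZ_10684_T1 with ARZ_7269_T1 (0.93), and the least alike were ARZ_10061_T1 and ARZ_7269_T1 (-0.57). The members thus shared the drop that chose them and otherwise followed more than 1 pattern.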

How the data were processed

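RNA from mycelia was extracted with Trizol and sequenced from Ion Proton libraries, per the labels' protocols. The authors deposited whole-number read counts in 3 tables, 1 per experiment. For the aligner and counter, the sources used here give nothing, and the build in the submitters' processing notes, Sscrofa 10.2, is a pig assembly that does not go with the fungal identifiers. Reads shared by gene copies may have been split or dropped, so values of members with a close copy are uncertain.

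CPM was each count over its library total, times 1000000, and a pseudocount of 1 CPM was added before log2. Each experiment was fitted with all its groups in edgeR 4.0.16 (R 4.3.3) after filterByExpr and TMM scaling, with two-sided quasi-likelihood F-tests and Benjamini-Hochberg adjustment over all 16398 (furans), 17495 (phenolic aldehydes) or 16714 (weak acids) genes tested; the call was at 0.05. Standard errors and 95% intervals come from the F statistics, and n is 2 libraries per group throughout. The tests were tried on simulated counts and the rule on a small constructed table. Alternatives were other scalings, filters, pseudocounts and thresholds, DESeq2 1.42.0, fits of 2 groups, a replicate block and leaving out each library, taking a group left with 1 library to vary as the rest do. Molar doses used rdkit 2024.09.2, and figures matplotlib 3.10.9.

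The members, lists and tests were chosen with earlier results of these data known. Members were named by the lowest ratio with 4-hydroxybenzaldehyde, the highest control level, the extremes for each other inhibitor, the largest called differences and nearness to the threshold; ARZ_8601_T1, ARZ_18304_T1, ARZ_11718_T1, ARZ_11995_T1 and ARZ_14373_T1 fall outside that rule, and those of them named were chosen after their values were seen.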

Additional observations from a re-analysis of the deposited data

How the results depend on the processing

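The choice of members depended on the threshold and on single libraries. A threshold of -1.0 gave 41 genes and one of -1.5 gave 10. The number ran from 11 to 33 when 1 of the 20 libraries was left out, with 11 without phenolic aldehyde control library 1, and it was 12 with only the phenolic aldehyde libraries numbered 2. TMM or median-of-ratios CPM gave 22, all of them members. Members called with 4-hydroxybenzaldehyde ran from 5 to 21 with a library left out. The same ranges were 4 to 7 for furfural, 2 to 7 for HMF, 0 to 6 for vanillin, 0 to 3 for syringaldehyde, 6 to 7 for acetic acid and 12 to 16 for formic acid against their controls. Between compounds they were 0 to 1 for vanillin against syringaldehyde, 2 to 4 for furfural against HMF and 14 to 17 for acetic acid against formic acid. Each of these fits leaves 1 library in a group, and the share of all genes called fell in most of them. It rose for HMF without HMF library 4, for syringaldehyde without syringaldehyde library 2, and for vanillin against syringaldehyde without either syringaldehyde library. Nothing is read from these ranges. For vanillin, 1 member was called with no filter, with only the 2 groups compared and with the replicate block. The member called with only the 2 groups compared was not among the 2 called in the main fit. DESeq2 called 2 members, of which 1 was called in the main fit. The cause of these changes was not tested. Same-numbered libraries deviated with correlations of -0.12 to 0.17, and whether equal numbers mark libraries handled together was not tested. With the replicate block, 20 members were called with 4-hydroxybenzaldehyde and 20 between the acids, beside 7.1% and 25.9% of all genes. With furfural the block called 12 members, against 8 without it, beside 44% and 34.3% of all genes. A crossed block of vanillin and control, added after seeing the data, called 7 of 24 members, beside 28.2% of all genes. Nothing is read from that count. The count below all 6 controls ran from 18 to 21 with a library left out. No paired analysis was possible for HMF because its library numbers are not shared. The 95% interval (2 libraries per group) lay within 2-fold for 13 members between vanillin and syringaldehyde, 20 between the furans and 8 between the acids. Over all genes the shares were 68.6%, 60.7% and 68.9% in that order. An interval beyond 2-fold reflects both spread and size of a difference, and between the acids 10 members had a called difference of at least 2-fold.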
